A study of Mus musculus with 12 samples.

Results

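The BCL2 family decides whether a cell opens its mitochondria and dies, and 10 of its genes were followed through knockdown of the long noncoding RNA TUNA in mouse embryonic stem cells. They were taken by symbol from a table of 37477 gene symbols and 12 libraries. The pro-survival class held Mcl1, Bcl2l1 and Bcl2. The BH3-only class held Pmaip1, Bbc3, Bcl2l11, Bid and Bad, and the effector class held Bax and Bak1. All 10 were present in the table. Of these, 8 reached 10 normalized counts in 3 or more libraries and were tested, among 8739 such rows. Bbc3 and Bcl2 fell below that level. Bcl2l11 reached 10 normalized counts in 9 libraries and Bad in 8, while the other 6 tested members did so in all 12.

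The cells were CCE, a mouse embryonic stem cell line grown in serum medium with LIF, a cytokine that keeps such cells undifferentiated. Every library came from cells transduced with a pLKO.1-puro lentivirus, a vector that expresses a short hairpin RNA, and kept in puromycin from 24 h on, controls included. The 4 groups of 3 libraries were a control hairpin at 2 days after transduction and a TUNA hairpin at 2, 4 and 6 days. Total RNA was sequenced. The control was analysed at day 2 alone, so in comparisons of days 4 and 6 with it the day and the hairpin cannot be told apart. Because the labels name no separate cultures, the spread behind each p-value is that of libraries and could be technical. They also name no hairpin sequence or count of hairpins, and the row of the TUNA transcript (2810011L19Rik) was listed at 0 in 12 of 12 libraries, so the knockdown could not be checked.

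In the mitochondrial pathway of apoptosis, Bax and Bak1 encode the effectors, which form pores in the outer mitochondrial membrane and release cytochrome c. The pro-survival proteins MCL1, BCL-XL (from Bcl2l1) and BCL2 hold the effectors and the BH3-only proteins in check. BH3-only proteins respond to stress by occupying the pro-survival proteins or by activating the effectors, and each has its own range of partners: NOXA (from Pmaip1) binds mainly MCL1, BAD binds BCL2 and BCL-XL, and PUMA (from Bbc3), BIM (from Bcl2l11) and BID bind widely. Much of this control acts on the proteins, through turnover, cleavage and phosphorylation, which transcript levels do not show.

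Recovered read totals were 3522194 to 5652528 per library, of which 60.4% to 76.9% lay in 3 rows (Rnu3a, Tex14 and LOC100503663), leaving 936439 to 2024779 reads for all others. All 10 embryonic stem cell markers were above 0 in every library, and their summed level was between 2961 and 3229 normalized counts in controls, 2676 and 2864 at day 2, 2525 and 2730 at day 4, and 1953 and 2399 at day 6. Of 12 fibroblast or feeder markers, 6, among them Col1a1, Col1a2, Col3a1 and Dcn, were listed at 0 in all libraries, and the summed level was between 13.7 and 22.0 in controls, 16.4 and 52.6 at day 2, 29.2 and 48.8 at day 4, and 306.7 and 396.2 at day 6. The day 6 sum came mostly from Acta2 (mean 0.368 in controls and 140.3 at day 6), Tagln (6.24 and 149.3), Thbs1 (1.92 and 34.7) and Timp3 (2.21 and 21.3), genes of contractile cells and matrix, while Pdgfra (6.04 and 6.04) and Thy1 (1.86 and 0.52) were not higher. Of 9 primitive endoderm markers, Afp, Ttr and Apoa1 were at 0 throughout, and the sums were 8.28 to 16.5, 4.28 to 13.4, 27.2 to 40.4 and 9.76 to 17.1 in the same order. Of 6 trophoblast markers Hand1 was at 0 throughout, with sums of 6.62 to 8.63, 6.81 to 12.3, 14.6 to 21.7 and 13.5 to 25.6. Tcfap2c averaged 6.55 in controls, 13.8 at day 4 and 8.88 at day 6, and Eomes 1.29, 2.88 and 4.35. Cdx2 was at 0 in all groups but day 6, where it averaged 5.26. The marker sums differed between groups, that of the stem cell markers also between the control and the TUNA hairpin at day 2. Their part in the results below was not tested. In such bulk libraries, fewer cells of a type and less RNA per cell cannot be told apart.

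The members stood at very different levels in control cells. Per kilobase of transcript (GENCODE M21 lengths), normalized counts averaged 578 for Mcl1 and 178 for Bax, and each of these stood apart from every member below it. Bcl2l1 followed at 30.0 and Bid at 25.9, and their libraries overlapped. Bak1 at 14.6, Bad at 12.2 and Pmaip1 at 9.97 overlapped each other. Bcl2l11 at 2.25 and Bbc3 at 2.12 also overlapped, and Bcl2 was listed at 0 in all 3 controls. Mcl1 thus made up 93.9% to 96.0% of the per-kilobase sum of the pro-survival class in control libraries, and Bax most of that of the effectors.

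At day 2, when the control is matched in time, no member passed the test in either direction. Of all rows tested, 0.412% were higher and 0.549% lower at an adjusted p below 0.05 (limma, Benjamini-Hochberg), and 1072 rows had an unadjusted p below 0.05, of the members only Pmaip1 (0.0386). At day 4, 1 of 8 tested members rose, Pmaip1, and 2 fell, Bcl2l1 and Bak1, where 6.99% of all rows were higher and 7.76% lower. At day 6 against the control only Pmaip1 passed of the 8, as higher, against 3.07% of all rows higher and 3.15% lower. The median log2 change of the 8 tested members was 0.01, -0.27 and -0.20 at days 2, 4 and 6, beside 0.006, -0.009 and -0.01 over all rows. The 3 comparisons share the control libraries.

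**Figure D1:**
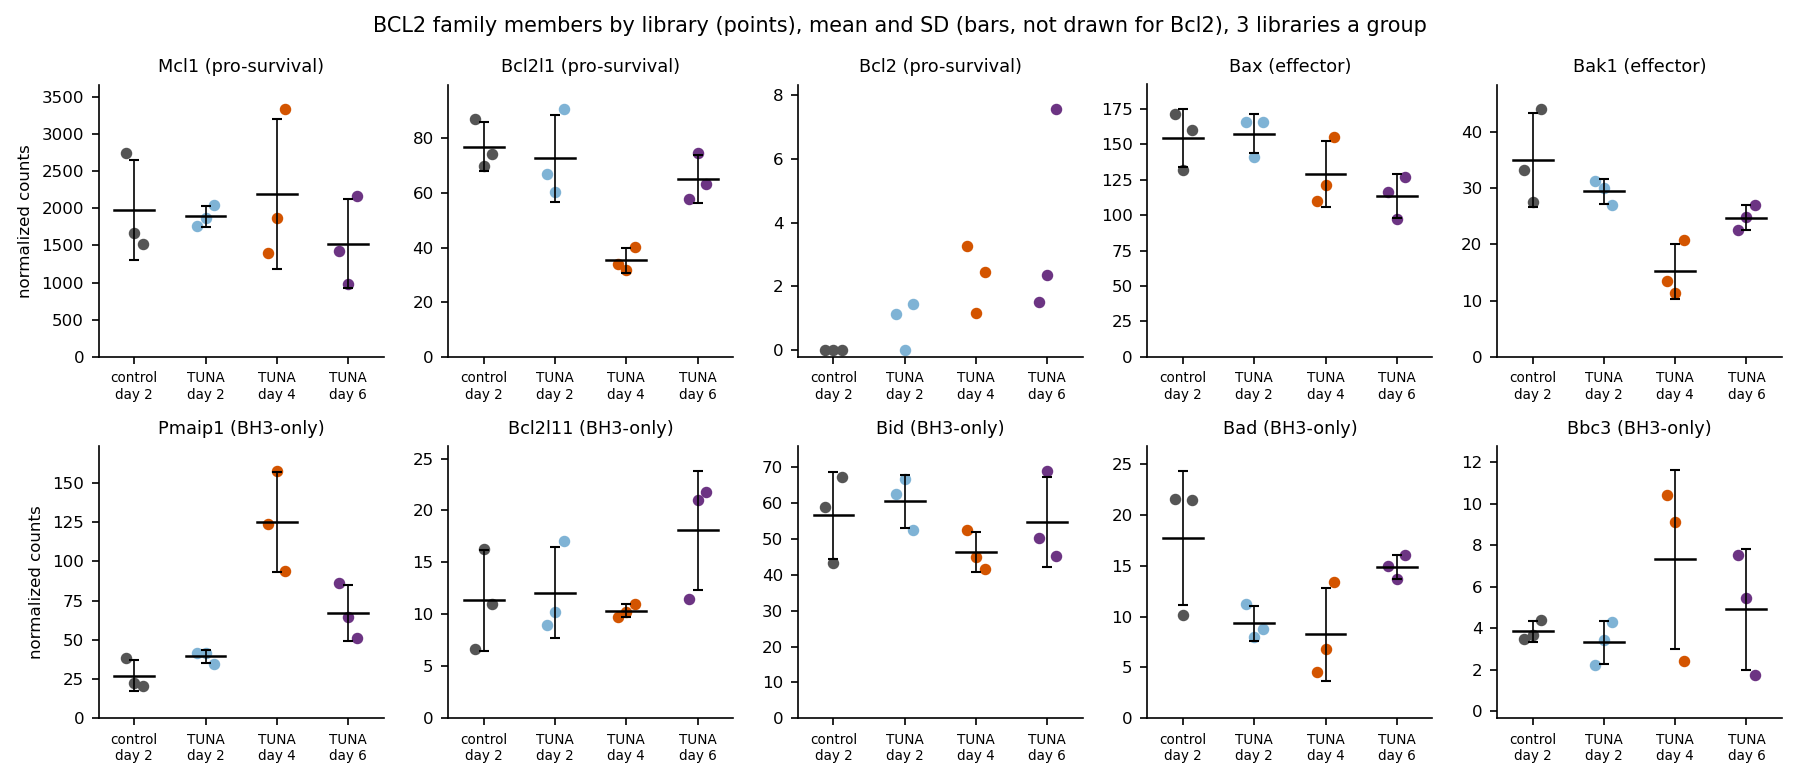
Normalized counts (y axis, linear, a scale of its own in each panel) of the 10 members in each library, by group on the x axis; points are libraries and bars the mean and SD of 3, left out for Bcl2. Pmaip1 has its 3 day 4 libraries, from 93.9 to 157.8, above all other groups, while for Bcl2l1 and Bak1 the day 4 libraries lie lowest.

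Pmaip1 encodes NOXA, a small BH3-only protein whose gene is known as a target of p53 and of other stress pathways. Its 3 control libraries held 20.8, 22.3 and 38.4 normalized counts. The day 2 libraries of the TUNA hairpin held 34.9, 41.7 and 41.8. The day 4 libraries held 93.9, 123.6 and 157.8, and the day 6 libraries 51.1, 64.6 and 86.4. Day 2 overlapped the control through its lowest library, whereas days 4 and 6 lay wholly above control and day 2, and day 6 wholly below day 4. Such separation was common: over all rows tested, it held in 32.4% for day 4 against the control and 24.0% for day 6. The share was 28.6% for day 4 against day 2 and 23.3% for day 6 against day 4. Of the 8 tested members, 3, 3, 4 and 5 were separated in these comparisons.

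On the log2 scale of the value plus 1, which understates the change of low genes, Pmaip1 rose by 2.18 ± 0.25 (SE, 4.54-fold) at day 4 over the control, with a limma adjusted p of 3.77e-05. At day 6 the rise over the control was 1.30 ± 0.25 (2.46-fold, limma adjusted p 0.0044). The day 2 difference of 0.57 ± 0.25 did not pass (limma adjusted p 0.378), and its 95% interval ran from 0.03 to 1.11. Day 4 also exceeded day 2 of the same hairpin, by 1.61 (3.06-fold, limma adjusted p 0.000952), a comparison in which 1 of 8 members was higher and 2, Bcl2l1 and Bak1, lower, against 3.27% of all rows higher and 4.38% lower. The difference from day 4 to day 6 was -0.88 and lay at the threshold (limma adjusted p 0.0506). With libraries left out it passed only without replicate 3 of day 4 (-1.07, adjusted p 0.0293), and in the other 5 such fits the adjusted p ran up to 0.208, at -0.70. It also passed in 5 alternatives that kept all libraries, limma-voom and the replicate block among them (adjusted p 0.0219 and 0.0272).

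Of the other BH3-only members, Bcl2l11, Bid and Bad did not pass the test on any day, and Bbc3 was below the filter. Bbc3, which encodes PUMA, another p53 target, held 3.45, 3.68 and 4.41 normalized counts in controls and 2.24, 3.41 and 4.28 at day 2. At day 4 it held 2.41, 9.12 and 10.4, and at day 6 1.75, 5.46 and 7.51. Each later group overlaps the control, and 2 of the 3 day 4 libraries lie above every control, but no change was detectable at this depth (limma adjusted p 0.602 at day 4 with no filter on low values). Trp53 itself, which encodes p53, averaged 35.5, 33.7, 34.2 and 34.9 normalized counts in the 4 groups, with log2 differences from the control between -0.07 and -0.02. The activity of p53 is set largely at the protein, which these values do not show.

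Bcl2l11 encodes BIM. It held 6.68, 11.03 and 16.3 normalized counts in controls, 8.96, 10.2 and 17.1 at day 2, 9.75, 10.3 and 11.00 at day 4, and 11.5, 21.04 and 21.7 at day 6. At day 6, 2 of the 3 libraries were above every other library of the 4 groups. The day 6 difference from the control was 0.65 ± 0.37 (limma adjusted p 0.362), with a 95% interval from -0.13 to 1.44.

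Bid, whose protein is cut by caspase 8 and so links death receptors to mitochondria, held 43.5, 59.0 and 67.4 in controls and 52.5, 62.5 and 66.8 at day 2. It held 41.5, 44.99 and 52.4 at day 4 and 45.2, 50.2 and 69.1 at day 6. Each TUNA hairpin group overlapped the control. The day 4 libraries lay just below those of day 2, a separation that 28.6% of all rows tested had in either direction. The differences from the control were 0.11, -0.27 and -0.05, each ± 0.21 (limma adjusted p 0.898, 0.432 and 0.939). In GENCODE M21 the end of Bid overlaps Bcl2l13, and without a stated strand in the counting their reads could mix. Bcl2l13 did not pass either (-0.53 at day 4, limma adjusted p 0.0795).

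Bad, whose protein is held inactive by phosphorylation, had 10.1, 21.5 and 21.6 normalized counts in controls and 7.95, 8.81 and 11.2 at day 2. At day 4 it had 4.51, 6.84 and 13.4, and at day 6 13.7, 15.0 and 16.04. The day 2 difference from the control was -0.80 ± 0.39 (limma adjusted p 0.423) and that of day 6 was -0.17 (limma adjusted p 0.87). The day 4 difference of -1.06 ± 0.39 missed the threshold (limma adjusted p 0.0757), and its 95% interval ran from -1.88 to -0.24. It passed without control replicate 2 (-1.40, adjusted p 0.0389) and without day 4 replicate 3 (-1.44, adjusted p 0.0217), the lowest control and the highest day 4 library. With all libraries kept it also passed with limma-voom on recovered reads (-1.29, adjusted p 0.0468). Bad overlaps Gpr137 in the annotation, a row listed at 0 in 8 of 12 libraries.

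Summed per kilobase, the BH3-only class reached between 40.3 and 59.1 in controls, between 48.6 and 55.2 at day 2, between 66.1 and 90.2 at day 4 and between 55.7 and 71.8 at day 6. Pmaip1 contributed from 13.2% to 23.8% of that sum in controls, from 26.3% to 28.1% at day 2, from 52.1% to 64.2% at day 4 and from 33.0% to 44.4% at day 6. At day 4 Pmaip1 averaged 45.9 per kilobase, which placed it after Mcl1 at 643 and Bax at 149 and above Bid at 21.2 and Bcl2l1 at 13.7. The lowest day 4 library of Pmaip1, at 34.4, stood above the highest of Bid, at 24.0.

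Among the pro-survival members, Bcl2l1, which encodes BCL-XL, fell at day 4 and was higher again at day 6. Its control libraries held 69.9, 74.2 and 87.0 normalized counts and its day 2 libraries 60.5, 66.8 and 90.7. The day 4 libraries held 31.7, 33.9 and 40.3, and the day 6 libraries 57.6, 63.3 and 74.8. Every day 4 library lay below every library of the other 3 groups, while day 2 and day 6 overlapped the control. Of all rows tested, 32.4% were separated between day 4 and the control, 28.6% between days 4 and 2 and 23.3% between days 6 and 4.

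The day 4 log2 change of Bcl2l1 from the control was -1.10 ± 0.20, a level 2.15-fold lower (limma adjusted p 0.00111). From day 2 to day 4 of the TUNA hairpin it fell by 1.01 (limma adjusted p 0.00431). From day 4 to day 6 it rose by 0.87 (1.82-fold, limma adjusted p 0.0135), the only member of the 8 called there, in a comparison in which 2.64% of all rows were higher and 2.94% lower. That rise did not pass without replicate 2 of day 4 (0.79, adjusted p 0.0679) or without replicate 2 of day 6 (0.77, adjusted p 0.055). At day 6 the difference from the control was -0.24, with a 95% interval from -0.65 to 0.17 (limma adjusted p 0.56).

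Mcl1, a short-lived pro-survival protein and the main partner of NOXA, was the most abundant member per kilobase, and its replicates were uneven in all groups but day 2. Controls held 1522, 1663 and 2746 normalized counts, and day 2 held 1765, 1874 and 2041. Day 4 held 1393, 1863 and 3334, and day 6 held 983.3, 1429 and 2163. All 4 groups overlapped. The log2 differences from the control were -0.01, 0.11 and -0.40, each ± 0.30 (limma adjusted p 0.994, 0.852 and 0.511), and at day 2 the 95% interval of -0.64 to 0.61 leaves room for a change of either sign.

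In the control, day 4 and day 6 groups, the library with the most Mcl1 was also the one with the largest share of reads in the 3 dominant rows (75.5%, 76.9% and 69.3%). At day 2 it was not: the library with the most Mcl1 had a share of 73.4%, and the highest share was 74.5%. The part of this share in the spread of Mcl1 was not tested. Replicate 3 of day 4 had the highest share of all libraries. In its group it also had the most Mcl1, Bax, Bak1, Bad, Bcl2l1 and Bcl2l11 and the least Pmaip1, Bbc3 and Bid. The day 4 changes from the control all kept their direction and side of the threshold without it for Pmaip1, Bcl2l1 and Bak1.

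Bcl2 was at the floor of the table. It was listed at 0 in all 3 controls and at 0, 1.12 and 1.43 normalized counts at day 2, 1.14, 2.44 and 3.26 at day 4, and 1.501, 2.34 and 7.59 at day 6. The highest library held about 8 reads and the other day 6 libraries 2 and 3. The floor was unequal, as values of 1 normalized count or fewer are listed at 0. A single read was worth 0.863 and 0.920 in control replicates 1 and 2 and would be listed at 0 there. The same holds for day 4 replicate 1 (0.651) and all day 6 libraries (0.751 to 0.948). In the day 2 libraries of the TUNA hairpin a read was worth 1.12 to 1.43 and would show. With no filter on low values Bcl2 passed at day 6 (limma adjusted p 0.0415) and not at day 4 (0.0724). An antisense transcript, D630008O14Rik, lies within the gene in GENCODE M21, and reads of either strand cannot be told apart here.

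Of the effectors, Bak1 fell at day 4 and Bax did not pass in any comparison. Bak1 held 27.6, 33.2 and 44.1 normalized counts in controls and 27.1, 30.0 and 31.3 at day 2. It held 11.4, 13.6 and 20.8 at day 4 and 22.5, 24.9 and 27.0 at day 6. Day 4 lay wholly below every other group, and day 6 lay wholly below the control. Over all rows tested, groups did not overlap in 32.4% for day 4 against the control and in 24.0% for day 6 against it. The share was 28.6% for day 4 against day 2 and 23.3% for day 6 against day 4.

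The day 4 log2 change of Bak1 from the control was -1.16 ± 0.26, a level 2.24-fold lower (limma adjusted p 0.00577). Against day 2 of the TUNA hairpin it was -0.95 (limma adjusted p 0.0312), but this difference did not pass without any 1 of the 3 day 2 libraries (-0.90, -0.93 and -1.005, adjusted p 0.0962, 0.0893 and 0.0704) or without day 4 replicate 1 or 2 (-0.89 and -0.77, adjusted p 0.0902 and 0.132). The day 6 difference from the control was -0.46 (limma adjusted p 0.355). From day 4 to day 6 the difference was 0.71 (limma adjusted p 0.118), and it passed only without day 4 replicate 3 (0.94, adjusted p 0.0491). Bak1 lies within Ggnbp1 on the opposite strand in GENCODE M21, and that row was listed at 0 in 11 of 12 libraries.

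Bax held 131.7, 160.2 and 171.2 normalized counts in controls and 141.4, 165.5 and 165.6 at day 2. It held 110.3, 121.6 and 155.4 at day 4 and 97.1, 116.5 and 127.2 at day 6. Every day 6 library lay below every control, a separation that 24.0% of all rows tested had in either direction. The difference of -0.44 ± 0.17 did not pass (limma adjusted p 0.153). The day 4 difference was -0.26 ± 0.17 (limma adjusted p 0.325). A readthrough gene model, Gm45808, overlaps Bax in GENCODE M21.

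**Figure D2:**
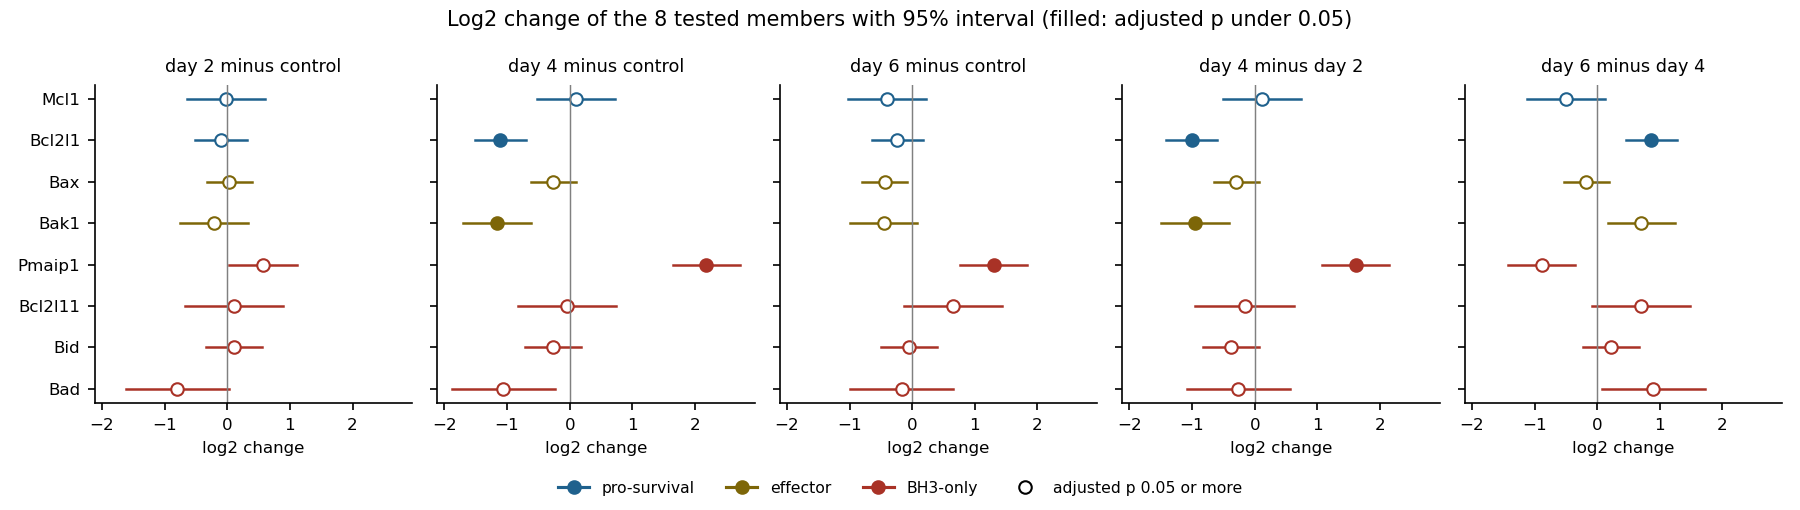
Log2 change (x axis) of the 8 tested members (rows, coloured by class) in the 5 comparisons; points are the fitted change, lines its 95% interval, and filled points have a limma adjusted p below 0.05. Pmaip1 lies to the right at day 4 and day 6 against the control, and Bcl2l1 and Bak1 to the left at day 4.

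The start regions of the pair that fell, Bcl2l1 and Bak1, and of Bax, the effector that did not pass, are shown to set their sequences beside these values. Each run is the 250 bases before the RefSeq start on build GRCm38.p6, on the minus strand, at chr2:152831729-152831978 for the farthest upstream of the 3 Bcl2l1 starts, chr17:27028628-27028877 for Bak1 and chr7:45466899-45467148 for Bax. Capitals mark matches, on either strand, to ACGTG (the core of the hypoxia response element), to TTCNNNGAA (a STAT site) or to the p53 half-site.
Bcl2l1: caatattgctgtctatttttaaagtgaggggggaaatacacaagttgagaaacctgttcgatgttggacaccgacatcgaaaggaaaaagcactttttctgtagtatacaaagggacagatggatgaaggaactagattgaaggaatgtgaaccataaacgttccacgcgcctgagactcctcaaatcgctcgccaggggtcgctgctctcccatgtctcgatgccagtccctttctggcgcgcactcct
Bak1: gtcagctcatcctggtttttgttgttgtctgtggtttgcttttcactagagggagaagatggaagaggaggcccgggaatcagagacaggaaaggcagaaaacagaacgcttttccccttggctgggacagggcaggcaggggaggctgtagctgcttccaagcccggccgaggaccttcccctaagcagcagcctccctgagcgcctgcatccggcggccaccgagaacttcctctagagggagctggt
Bax: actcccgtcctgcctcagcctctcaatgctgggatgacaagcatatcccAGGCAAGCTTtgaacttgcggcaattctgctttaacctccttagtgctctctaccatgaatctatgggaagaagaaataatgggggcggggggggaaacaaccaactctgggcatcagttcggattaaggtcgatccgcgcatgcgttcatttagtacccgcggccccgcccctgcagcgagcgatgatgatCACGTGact
The Bcl2l1 and Bak1 windows held none of these letters. The Bax window held a p53 half-site beginning 201 bases before the start and, just before the start, CACGTG, which reads ACGTG on both strands and so counts as 2 overlapping matches. Among 32851 RefSeq start windows of the same length, 16.6% held ACGTG, 7.02% the STAT site and 7.13% the p53 half-site. A match describes the letters of a window only.

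Ratios between members of 1 library do not depend on how the library was scaled. The pairs were chosen after the values had been seen, so the ratios are a description. Pmaip1 stood at 1.34% to 1.40% of Mcl1 in normalized counts in controls and at 1.71% to 2.37% in the day 2 libraries. The share was 2.82% to 8.87% in the day 4 libraries and 2.36% to 6.57% in those of day 6. All 9 libraries of the TUNA hairpin were above all 3 controls in this ratio. How many other pairs separate in this way was not counted. Of single rows tested, 20.1%, 32.4% and 24.0% were separated from the control at days 2, 4 and 6. Bcl2l1 stood at 3.17% to 4.87% of Mcl1 in controls and at 3.23% to 4.44% in the day 2 libraries. It stood at 1.21% to 2.43% in the day 4 libraries and at 2.93% to 7.60% in those of day 6.

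The ratio of Bax to Bcl2l1 was 1.88 to 2.16 in controls and 1.83 to 2.48 in the day 2 libraries, then 3.26 to 3.85 in the day 4 libraries and 1.30 to 2.02 in those of day 6. Its day 4 libraries lay above those of the other 3 groups, and here too the share of other pairs that do so was not counted. Bak1 over Bcl2l1 was 0.382 to 0.594 in controls and 0.358 to 0.515 at day 4, with overlap in all groups. The counts of these 2 genes thus kept a like ratio at day 4 while both were lower. Bax over Bak1 went from 3.64 to 5.15 in controls to 7.48 to 10.7 at day 4 and 3.89 to 5.18 at day 6.

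**Figure D3:**
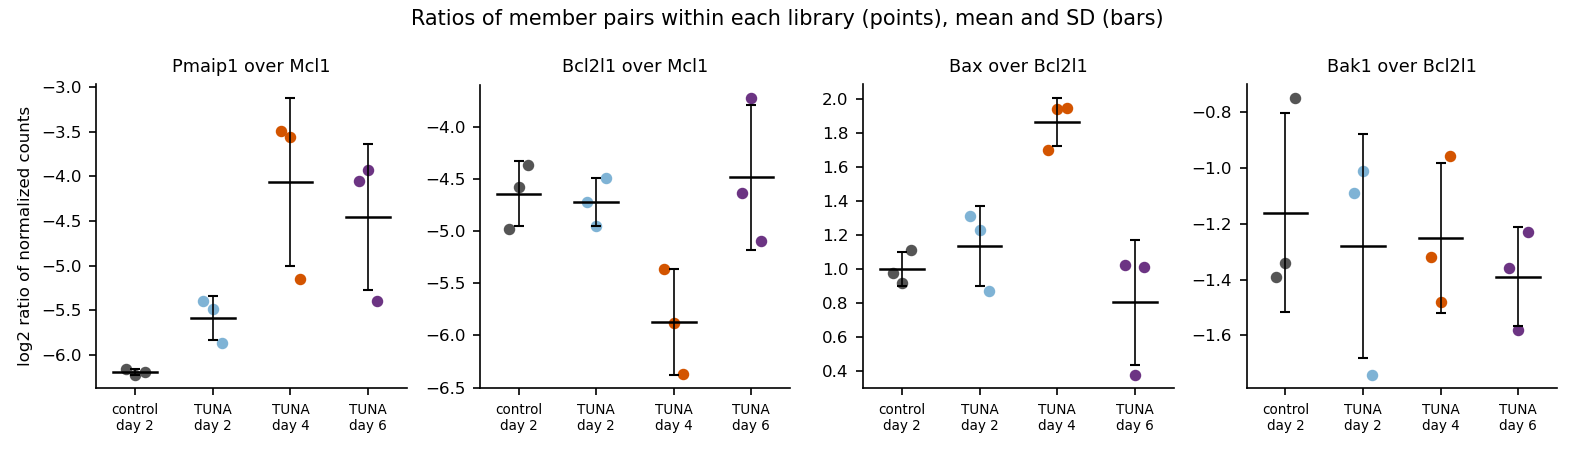
Log2 ratio of normalized counts (y axis, its own range in each panel) for 4 pairs of members within each library, by group on the x axis; points are libraries and bars the mean and SD of 3. Pmaip1 over Mcl1 is lowest in the 3 controls, Bax over Bcl2l1 is highest at day 4, and Bak1 over Bcl2l1 overlaps in all groups.

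Outside the 10 members, 16 other genes of the BCL2 family or with BH3-like domains were in the table and 6 were tested. None passed at day 2, 1 rose at day 4, and none passed at day 6, with median log2 changes of -0.24, 0.23 and -0.05. Over all rows tested, for this list and those after it, 0.412%, 6.99% and 3.07% were higher and 0.549%, 7.76% and 3.15% lower on the 3 days, with medians of 0.006, -0.009 and -0.01. The one was Bnip3, an atypical member of the outer mitochondrial membrane known for its role in mitophagy and its induction by low oxygen. It averaged 9.60 normalized counts in controls, 10.9 at day 2, 82.4 at day 4 and 12.1 at day 6. Its log2 change was 2.96 ± 0.28 at day 4 over the control (limma adjusted p 6.91e-06) and -2.66 from day 4 to day 6 (limma adjusted p 2.69e-05). The pro-survival genes Bcl2a1a, Bcl2a1b, Bcl2a1c and Bcl2a1d were listed at 0 throughout.

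Downstream of the mitochondria, 11 of 16 apoptosome and caspase genes were tested, and 1 rose at day 4 with none lower. It was Apaf1, the scaffold on which cytochrome c assembles the apoptosome, with means of 97.6 in controls and 158.4 at day 4 (0.68 ± 0.18, limma adjusted p 0.0147). Without control replicate 3 or day 4 replicate 3 it was 0.59 and 0.52, with adjusted p of 0.0636 and 0.0575. None of the 11 passed at day 2 or day 6, and the medians were -0.23, -0.13 and -0.24 at days 2, 4 and 6. Of 11 death receptor genes, 4 were tested and none passed on any day (medians -0.05, 0.21 and 0.34).

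Among 8 tested of 11 inhibitors of apoptosis, none passed at day 2, 3 rose at day 4 and 1 fell at day 6 (medians 0.14, 0.16 and 0.0). Xiap, which binds and blocks caspases, averaged 277.4 in controls and 376.8 at day 4 (0.44 ± 0.13, limma adjusted p 0.0283). Cflar, whose product blocks caspase 8 at death receptors, averaged 7.53 and 19.7 (1.17 ± 0.37, limma adjusted p 0.0409). Api5 averaged 123.8 and 176.4 (0.51 ± 0.16, limma adjusted p 0.0398). Birc2, a ubiquitin ligase of tumour necrosis factor signalling, averaged 145.5 in controls and 94.6 at day 6 (-0.62 ± 0.17, limma adjusted p 0.0334).

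These 4 calls were lost when single libraries were left out. The adjusted p reached 0.108 for Xiap (lost on leaving out replicates 2 or 3 of either group), 0.184 for Cflar (lost on leaving out any control, or replicates 1 or 2 of day 4), 0.133 for Api5 (lost without any of the 6 libraries) and 0.175 for Birc2 (lost on leaving out replicates 1 or 3 of the control, or 1 or 2 of day 6). The log2 changes without those libraries were 0.38 to 0.46 for Xiap, 0.89 to 1.26 for Cflar, 0.42 to 0.58 for Api5 and -0.66 to -0.49 for Birc2. With all libraries kept, fitting only the 2 groups also ended all 4 calls (adjusted p 0.0629 for Xiap, 0.0758 for Cflar, 0.0598 for Api5 and 0.0757 for Birc2). Having no filter ended those of Cflar (0.0748) and Api5 (0.0511), limma-voom that of Cflar (0.0527) and the replicate block that of Api5 (0.0577).

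Of 20 genes that regulate the transcription or turnover of BCL2 family members, 16 were tested. None passed at day 2 or day 6, and at day 4 there were 2 higher and 2 lower (medians -0.04, -0.01 and -0.02 at days 2, 4 and 6). Myc, a transcription factor of growth, averaged 23.4 normalized counts in controls, 15.9 at day 2, 6.46 at day 4 and 23.7 at day 6. Its log2 change was -1.72 ± 0.29 at day 4 from the control (limma adjusted p 0.000856) and 1.70 from day 4 to day 6 (limma adjusted p 0.00172). Stat3, which transmits the LIF signal and is known to activate Bcl2l1 in some cells, averaged 77.4, 60.9, 42.8 and 74.1 in the same order. Its change was -0.84 ± 0.20 at day 4 (limma adjusted p 0.00909).

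The higher pair at day 4 were March5, a ubiquitin ligase of the outer mitochondrial membrane, at 29.5 in controls and 54.5 at day 4 (0.83 ± 0.23, limma adjusted p 0.0235), and Foxo3, a stress-responsive transcription factor, at 101.8 and 147.7 (0.53 ± 0.15, limma adjusted p 0.0257). Both calls were lost without any 1 of the 3 controls or without day 4 replicate 1, and that of Foxo3 also without day 4 replicate 3. The adjusted p reached 0.119 for March5, at a change of 0.62, and 0.0753 for Foxo3, at 0.50.

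**Figure D4:**
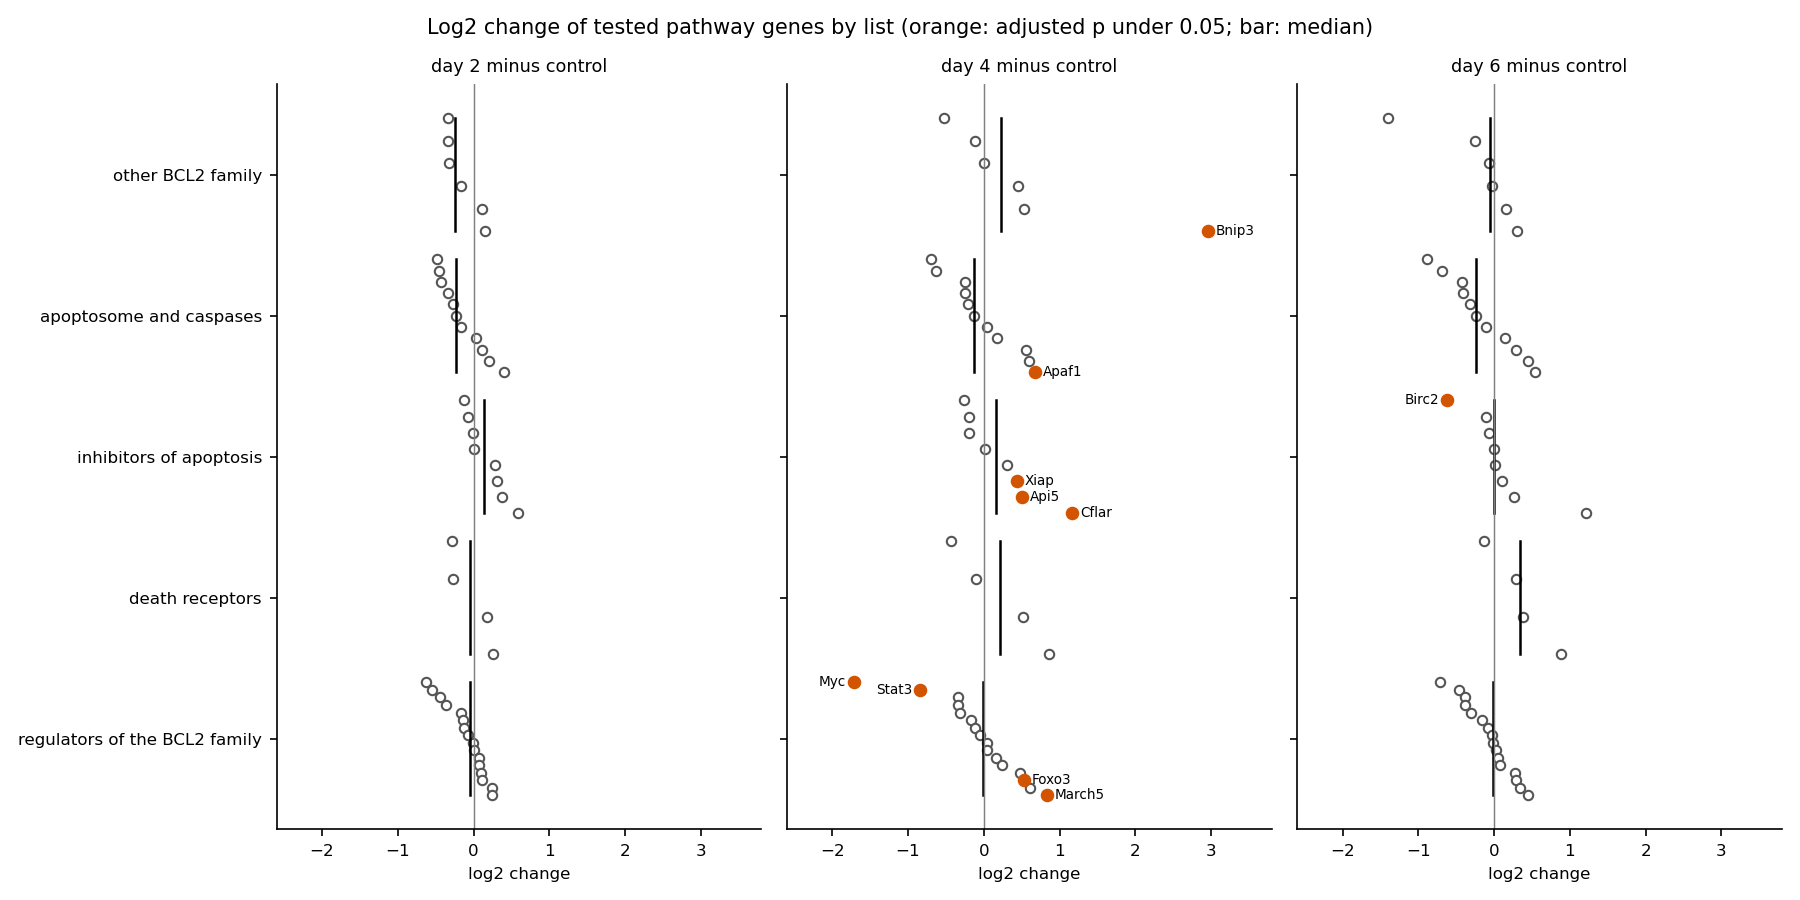
Log2 change (x axis) at days 2, 4 and 6 against the day 2 control of each tested gene of the 5 wider lists (rows); each point is 1 gene, filled and named where its limma adjusted p is below 0.05, and the black bar is the list's median. No gene is filled at day 2, 9 are at day 4 and 1, Birc2, is at day 6.

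For each member that passed in some comparison, the rows most like it over the 12 libraries were sought among 3259 or 3260 tested rows that averaged 50 normalized counts or more, by the root mean square difference of their centred log2 values. For Pmaip1 these were Plod2, a collagen lysyl hydroxylase (0.316), Skil, a repressor of SMAD signalling (0.366), and Itgav, an integrin subunit (0.385), where the median row differed by 0.916. Plod2 averaged 27.5, 48.6, 156 and 55.9 in the 4 groups from control to day 6, Skil 171, 264, 560 and 376, and Itgav 32.0, 62.5, 117 and 79.4. At day 2 against the control, Skil (0.63, limma adjusted p 0.0319) and Itgav (0.94, limma adjusted p 0.00818) passed. Plod2 (0.82, limma adjusted p 0.0561) and Pmaip1 (0.57, limma adjusted p 0.378) did not. For Bcl2l1 they were L1td1, an RNA-binding protein of pluripotent cells (0.161), Polr3b, a subunit of RNA polymerase III (0.199), and Gm14139 (0.201), beside a median of 0.529. L1td1 averaged 291, 242, 132 and 212. For Bak1 they were Nploc4 (0.202), Eif4e2 (0.211) and Grwd1 (0.211), beside a median of 0.547, and Nploc4 averaged 152, 129, 58.8 and 108. The likeness is a description of 12 libraries that share 4 groups.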

How the data were processed

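RNA-seq of 12 libraries was analysed from 1 table of log2 normalized counts deposited by the authors. The submitters' processing notes name BWA, DESeq and build mm9, without saying which version or what each did. No source used here gives how reads were shared between genes or whether strand was used. No deposited log2 value is below 0, so a 0 means 1 normalized count or fewer, and it was set to 0 after raising values back to counts. From the smallest steps, 1 read was worth 0.651 to 1.43 normalized counts. Of values below 20 reads, just 43.8% to 56.9% came within 0.02 of a whole number of reads, so no count test was used.

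Values plus a pseudocount of 1 were taken to log2 and modelled in limma (version 3.58.1, R 4.3.3; intensity trend, 1 coefficient per group, all 12 libraries), keeping rows that reached 10 normalized counts in 3 or more libraries. P-values were adjusted by Benjamini-Hochberg over the 8739 rows within each of the 5 comparisons, at a threshold of 0.05. The fit was also run on simulated counts, drawn independently with the same spread setting for all rows. Those are simpler than these data, so the run checks the code and not the error rates here. All 10 members were described. Of the wider lists, every gene that passed against the control was named, at most 4 a list by the smallest adjusted p. For each called member the 3 most similar rows were named. The members and lists were chosen with earlier results of these data known.

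Alternatives changed the scaling, filter, pseudocount, model, groups fitted, replicate block and libraries kept. Start regions of 9 members (15 windows) were taken from RefSeq, GRCm38.p6. The start region of Pmaip1 was left out beforehand and not searched, so nothing is said of its letters. Transcript lengths and overlaps came from GENCODE M21 (GRCm38), not from the build of the authors.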

Additional observations from a re-analysis of the deposited data

Results flagged for a closer look

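Levels differed between days of the TUNA hairpin for a member in 4 cases, and with no control of days 4 and 6 the day and the hairpin cannot be told apart there (limma, Benjamini-Hochberg over 8739 rows). Pmaip1 was higher at day 4 than at day 2, by 1.61 on the log2 scale (limma adjusted p 0.000952). Bcl2l1 was lower at day 4 than at day 2, with a log2 difference of -1.01 (limma adjusted p 0.00431), and higher at day 6 than at day 4, by 0.87 (limma adjusted p 0.0135). Bak1 was lower at day 4 than at day 2, with a difference of -0.95 (limma adjusted p 0.0312). The last of these was lost without any 1 of the 3 day 2 libraries or without day 4 replicate 1 or 2 (-0.77 to -1.005), and the day 6 against day 4 difference of Bcl2l1 without replicate 2 of day 4 (0.79) or of day 6 (0.77). Groups of 3 libraries are too small for the check on single outlying libraries.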

How the results depend on the processing

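The day 4 calls against the control of Pmaip1, Bcl2l1 and Bak1, the day 6 call of Pmaip1 and the day 4 against day 2 calls of Pmaip1 and Bcl2l1 held in all 15 alternatives run for each, with adjusted p up to 0.0389. For the 8 tested members no called change was reversed under these alternatives, while some changes that were not called took the other sign. The day 4 count went from 3 to 4 with limma-voom on recovered reads, which also called Bad. For day 6 against the control, 1 member was called and 2 with no filter (the second is Bcl2). For day 6 against day 4, 1 member was called, 2 under median-of-ratios scaling, a filter of 20 normalized counts, a pseudocount of 5, limma-voom on recovered reads or the replicate block, and 0 with only the 2 groups fitted; with libraries left out in turn the count ran from 0 (without day 4 replicate 2 or day 6 replicate 2) to 3 (without day 4 replicate 3). Under the settings that gave 2, the second gene was Pmaip1, and the cause was not tested. Whether the replicate numbers pair the libraries could not be decided, as correlations of deviations were spread alike with and without a shared number. Deviations of same-numbered libraries correlated from -0.277 to 0.328, and those of other libraries in different groups from -0.331 to 0.315. Of 12 libraries, 6 correlated best with their own number. Bak1 at day 4 against day 2 was also lost with no filter (adjusted p 0.0571) and with only the 2 groups fitted (0.0619). Over all rows, the lower calls at day 2 went from 48 to 27 with no filter, and the calls of day 6 against day 4 from 231 higher and 257 lower to 92 and 105 with only the 2 groups. Leaving out libraries brought the calls down to 9 higher and 9 lower at day 2, 362 and 447 at day 4, 125 and 157 at day 6, 141 and 188 for day 4 against day 2, and 99 and 120 for day 6 against day 4. Depth limits Bcl2 and Bbc3, which stayed under the filter.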
